A study of Mus musculus with 491 samples.

Results

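The 8 genes described here, Fos, Fosb, Jun, Junb, Egr1, Ier2, Atf3 and Dusp1, were taken by name from the 19494 genes with a single symbol in the deposited expression table, and all 8 had a row. Their levels are given over 491 single cells by cell class, plate and replicate, together with how they varied from cell to cell. The cells were tdTomato-positive cells sorted from the otic vesicle and the tissue around it in mouse embryos at E10.5, a stage of mid-gestation. All cells shared the genotype Pax2-Cre/+;Ai14-tdTomato/+, so there was no mutant, treated or Cre-negative group. Cre expressed from the Pax2 transgene switches the Ai14 reporter on permanently, so a red cell may be any descendant of a Pax2-Cre cell, and the sort does not select otic epithelium alone. The titles give 2 replicates of 3 plates each, and plates 4 to 6 (replicate 2) held 254 cells, against 237 cells on plates 1 to 3 (replicate 1). The labels do not say what a replicate was taken from, so p-values measure only the spread between these samples, which may be technical.

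Immediate early genes are transcribed within minutes of a growth factor, depolarisation or stress stimulus, without the need for new protein. In general their promoters are switched on by factors that are already in the cell, such as CREB at cyclic AMP response elements and serum response factor with its Elk partners, which are phosphorylated by MAP kinases. Fos and Fosb pair with the Jun proteins to form the transcription factor AP-1, and Egr1 is a zinc finger transcription factor. Enzymatic dissociation and sorting of cells are themselves known to switch these genes on. The samples analysed here hold no undissociated tissue, so the part of handling was not tested.

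By the GENCODE M21 annotation, which is on GRCm38 (mm10), the AP-1 genes lie at chr12:85473890-85477273 on the plus strand (Fos), chr7:19302696-19310051 on the minus strand (Fosb), chr4:95049034-95052222 on the minus strand (Jun) and chr8:84974484-84978718 on the minus strand (Junb). On the minus strand lie Ier2 at chr8:84661331-84662852, Atf3 at chr1:191170296-191218039 and Dusp1 at chr17:26505590-26562128. All 8 genes, Egr1 included, are protein-coding, and 4 of them overlap another annotated gene. The library kit is not stated to keep the strand, so reads in an overlap could not be assigned with certainty. Junb overlaps Prdx2, a peroxiredoxin gene on the other strand that was found in 99.8% of cells, whereas Junb was found in 49.69%. Their correlation over cells was -0.08 after the mean of each cell class on each plate was subtracted. Dusp1 overlaps Ergic1, found in 61.1% of cells, with a correlation of 0.05 measured in the same way. Jun overlaps its antisense gene Junos and Atf3 overlaps Gm24748, neither of which had a row of its own.

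Of the 8 genes, 6 had an entry in the RefSeq promoter table of GRCm38.p6, and the 250 bases before the start that RefSeq gives were searched on both strands for 4 motifs. The core of the cyclic AMP response element, TGACG, was present in 5 of 6, in Fos, Fosb, Junb, Atf3 and Dusp1, against 17.8% of all 32851 promoters of the same length. The whole palindrome TGACGTCA, which contains the core, was present in Dusp1, against 1.55% of all promoters. Neither the AP-1 site TGANTCA (6.75% of all promoters) nor the CArG box, the letters bound by serum response factor (1.47%), was in any of the 6 windows. Bases farther upstream, variants of these letters, and Egr1 and Ier2, which had no entry, were not searched, so such sites may lie there. These matches describe the letters in the windows and are not evidence of binding. The promoters of 4 genes that varied together over cells and hold the core are shown, read 5′ to 3′ on the strand of the gene, with capitals marking the core or the palindrome. They lie at chr12:85473640-85473889 on the plus strand (Fos), and on the minus strand at chr7:19310046-19310295 (Fosb), chr8:84978749-84978998 (Junb) and chr17:26508473-26508722 (Dusp1).
Fos: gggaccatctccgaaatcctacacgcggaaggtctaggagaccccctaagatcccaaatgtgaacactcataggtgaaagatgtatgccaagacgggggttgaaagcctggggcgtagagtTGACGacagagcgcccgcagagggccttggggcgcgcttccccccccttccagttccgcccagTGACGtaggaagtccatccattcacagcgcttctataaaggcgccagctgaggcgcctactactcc
Fosb: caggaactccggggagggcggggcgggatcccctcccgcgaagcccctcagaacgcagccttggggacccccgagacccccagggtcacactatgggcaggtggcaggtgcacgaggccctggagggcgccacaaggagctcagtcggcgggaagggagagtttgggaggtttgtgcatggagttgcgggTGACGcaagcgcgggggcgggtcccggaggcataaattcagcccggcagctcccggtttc
Junb: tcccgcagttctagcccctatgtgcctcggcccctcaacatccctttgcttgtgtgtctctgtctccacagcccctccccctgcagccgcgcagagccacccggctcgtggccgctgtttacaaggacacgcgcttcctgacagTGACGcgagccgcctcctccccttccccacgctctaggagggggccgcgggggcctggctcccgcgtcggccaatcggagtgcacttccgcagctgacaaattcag
Dusp1: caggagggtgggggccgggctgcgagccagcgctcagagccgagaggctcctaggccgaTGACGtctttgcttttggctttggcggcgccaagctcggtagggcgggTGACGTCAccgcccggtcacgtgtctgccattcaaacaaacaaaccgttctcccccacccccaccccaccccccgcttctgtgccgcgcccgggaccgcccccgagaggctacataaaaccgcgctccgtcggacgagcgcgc
In Fos the core began at positions -129 and -66, in Fosb at -60 and in Junb at -106, counted from the RefSeq start with -1 as the base before it. The RefSeq starts of Dusp1 and Atf3 lie inside the longer genes of GENCODE whose coordinates are given above. In Dusp1 matches began at -191, -143 and -140, and the last 2 are the palindrome read on both strands.

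Values are log2(FPKM + 1), where FPKM counts fragments per length of transcript and per total of mapped fragments, so levels of different genes can be compared per length. A gene was taken as found in a cell at an FPKM of at least 1. The depth in reads is unknown, so a value of 0 means that a gene was listed at 0, and intervals given for shares are exact binomial 95% intervals that cover counting error only. Over the cells, 2552 to 6403 genes were found (median 4513).

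Ier2, which encodes a small nuclear protein induced by growth factors, was the highest of the 8 in these cells. It was found in 95.3% of 491 cells (93.1 to 97.0) and had a mean level of 6.52, above that of 95.7% of the 10196 genes tested. Jun, the central subunit of AP-1, was found in 82.5% of cells (78.8 to 85.7). Dusp1, a phosphatase that inactivates MAP kinases and is itself an immediate early gene, was found in 76.6% (72.6 to 80.3).

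Fos, the gene most widely used to mark recent stimulation, was found in 49.5% of cells (45.0 to 54.0). Where it was found its median was 49.6 FPKM, with quartiles of 16.2 and 114 FPKM and a highest value of 1193 FPKM in a cell. Junb, another Jun subunit, was found in a like share, 49.7% (45.2 to 54.2), at a median of 38.5 FPKM where found. The cells were thus close to evenly split between those with Fos listed below 1 FPKM and those with Fos at a median of 49.6 FPKM.

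Egr1, which lies at chr18:34859823-34864984 on the plus strand, was found in 33.6% of cells (29.4 to 38.0), at a median of 22.1 FPKM where found. Fosb, a Fos relative that also pairs with Jun proteins, was found in 55 of 491 cells (8.55% to 14.3%), and where found its median was only 5.13 FPKM. Atf3, a stress-induced relative of the AP-1 proteins, was found in the fewest cells, 7.33% (5.19 to 10.01), but at a median of 41.5 FPKM and up to 1181 FPKM. Fosb was therefore rare and low, and Atf3 was rare with levels like those of Fos in the cells that had it.

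Cells were put into 7 classes by clustering 59 marker genes, none of which is one of the 8. The classes were otic epithelium-like (148 cells), neural tube progenitor-like (118), differentiating neuron-like (55), early neuroblast-like (54), surface ectoderm-like (42) and mesenchyme-like (23), and a cluster of 51 cells, called cluster 4, that kept its number because it mixed neuronal markers. Epcam, an epithelial marker, was found in 96.6% and Oc90, an otic marker, in 55.4% of otic epithelium-like cells. Stmn2, a neuronal marker, was found in 98.2% of differentiating neuron-like cells. All classes were present in both replicates. Because the labels name the otic vesicle and its surroundings as the tissue, otic epithelium-like cells served as the class against which the others were set.

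Fos was highest in otic epithelium-like cells and lowest in the neuronal classes. Its mean was 0.96 in replicate 2 and 1.78 in replicate 1 in differentiating neuron-like cells, and 1.73 and 1.03 in cluster 4, against 3.90 and 3.51 in otic epithelium-like cells. In differentiating neuron-like cells it was found in 29.1% (17.6 to 42.9), in cluster 4 in 33.3% (20.8 to 47.9), and in otic epithelium-like cells in 64.9% (56.6 to 72.5). The means of both replicates in the otic class lay above those of both neuronal classes, with no overlap. Over the 6 plates the means in differentiating neuron-like cells were lowest at 0.54, median 1.01 and highest at 3.4, against 2.78, 3.87 and 4.23 in otic epithelium-like cells.

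The other classes lay between. Mean Fos was 3.37 in surface ectoderm-like, 2.84 in mesenchyme-like, 2.73 in neural tube progenitor-like and 2.22 in early neuroblast-like cells. In the order of levels the replicate means of surface ectoderm, mesenchyme, neural tube and neuroblast overlapped from each class to the next, and so did those of cluster 4 and the neurons. Those of the otic class and surface ectoderm did not overlap, but they came as close as 3.51 and 3.48, and the difference between these classes did not pass (adjusted p = 0.824 by limma). The replicate means of the neuroblast class lay above those of cluster 4.

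**Figure D1:**
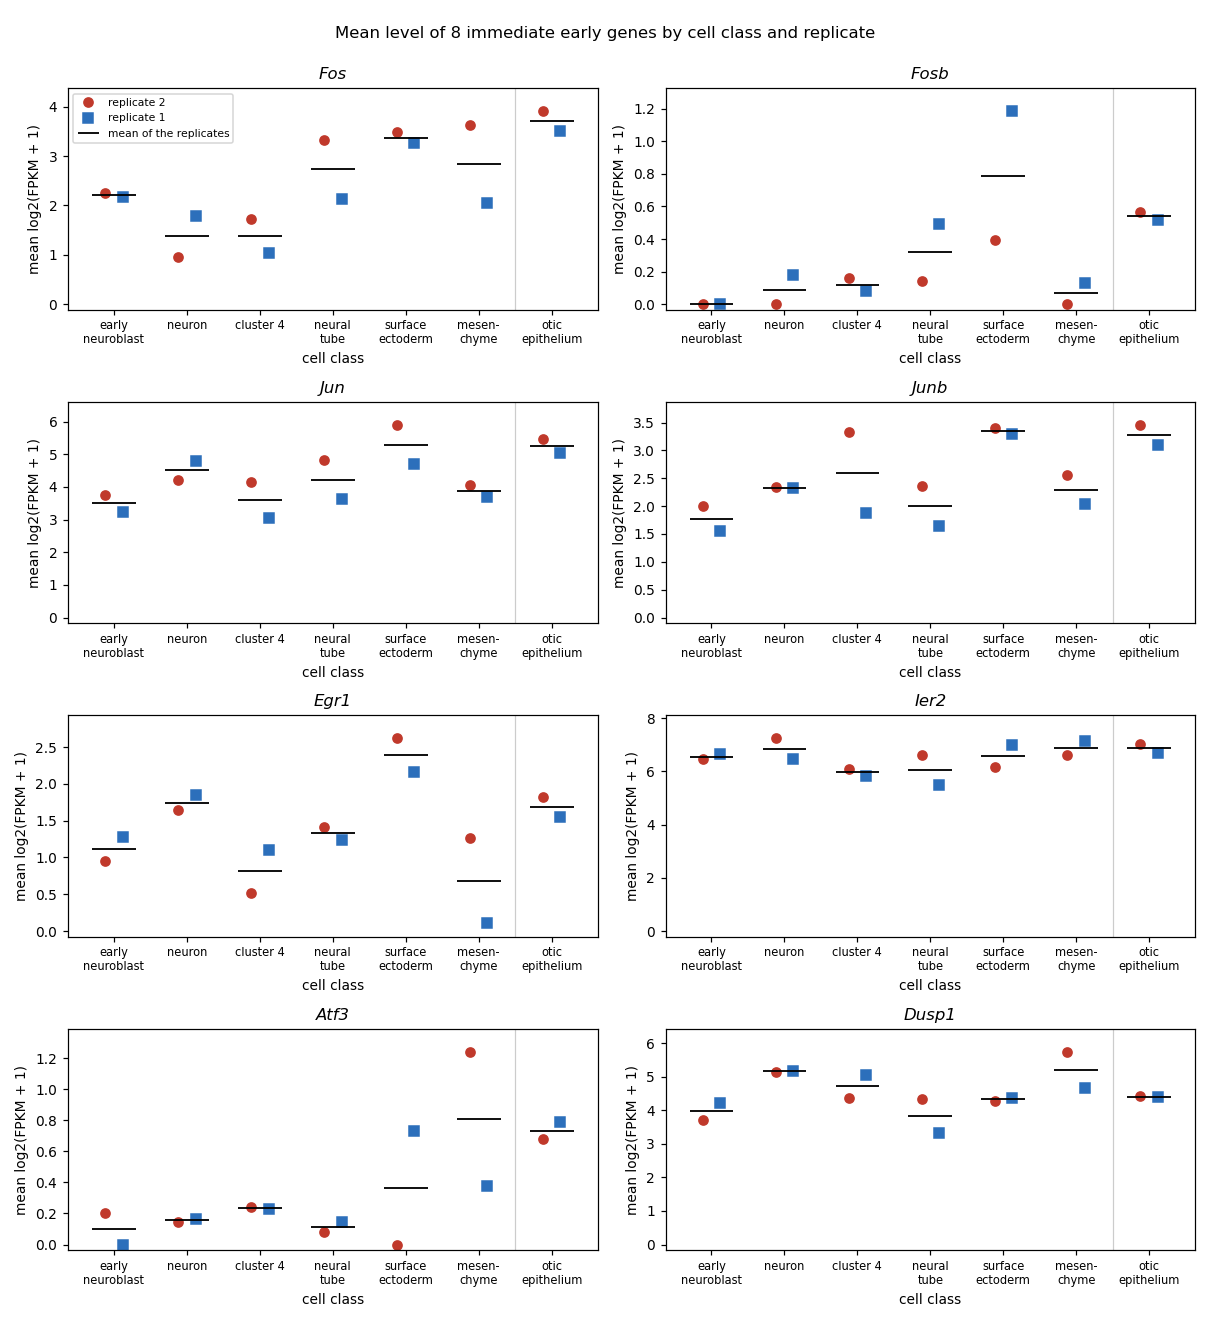
Mean level of each of the 8 genes, as log2(FPKM + 1) on the y axis, in the 7 cell classes on the x axis. Red circles are replicate 2, blue squares replicate 1 and bars their mean. Fos lies between 0.96 and 1.78 in the neuron class and at 3.90 and 3.51 in the otic class, whereas Ier2 lies above 5 in every class.

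Jun was high in surface ectoderm-like and otic epithelium-like cells, with means of 5.3 and 5.25. Its lowest means were in early neuroblast-like cells, at 3.76 in replicate 2 and 3.22 in replicate 1, and in cluster 4, at 4.16 and 3.04, against 5.47 and 5.03 in otic epithelium-like cells. Shares of cells with Jun were 70.4% in early neuroblast-like cells (56.4 to 82.0) and 74.5% in cluster 4 (60.4 to 85.7), against 90.5% in otic epithelium-like cells (84.6 to 94.7). Differentiating neuron-like cells, at 4.23 and 4.79, lay between, and apart from the step below the otic class the replicates of each neighbouring pair overlapped.

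Junb had nearly the same order at its ends, with 3.34 in surface ectoderm-like and 3.28 in otic epithelium-like cells. Its lowest mean was in early neuroblast-like cells, at 2.0 in replicate 2 and 1.55 in replicate 1, against 3.46 and 3.1 in otic epithelium-like cells. Every pair of neighbours in the order of Junb overlapped. Egr1 was highest in surface ectoderm-like cells, at 2.62 in replicate 2 and 2.16 in replicate 1, against 1.83 and 1.54 in otic epithelium-like cells. Its next class was differentiating neuron-like, at 1.64 and 1.85, with a difference from the otic class of 0.06 (SE 0.40), where that of Fos was -2.33. Whether Egr1 and Fos differ from each other in this was not tested.

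Fosb was found in 21.4% of surface ectoderm-like cells (9 of 42 cells, upper bound 36.8%) and 11.9% of neural tube progenitor-like cells (6.64 to 19.1), against 18.2% of otic epithelium-like cells (12.38 to 25.42). In the other classes it was found in at most 2 cells each, and in 0 of 54 early neuroblast-like cells, a count that allows a share of up to 5.56% by a limit of 3 cells, and of up to 6.6% by the exact binomial interval. Shares of cells with Atf3 were 13.0% in mesenchyme-like cells (2.78 to 33.6), 9.52% in surface ectoderm-like cells (2.66 to 22.6) and under 6% in each of the neural and neuronal classes, against 12.8% in otic epithelium-like cells (7.91 to 19.3). The mesenchyme share rests on 3 cells, and its 2 replicate means were 1.24 and 0.38.

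Ier2 and Dusp1 were spread more evenly. Mean Ier2 ran from 5.97 in cluster 4 to 6.88 in mesenchyme-like cells, and neighbouring classes overlapped throughout. Dusp1 was highest in mesenchyme-like (5.21) and differentiating neuron-like cells (5.17) and lowest in neural tube progenitor-like cells (3.84). In differentiating neuron-like cells Dusp1 was at 5.14 in replicate 2 and 5.19 in replicate 1, against 4.42 and 4.4 in otic epithelium-like cells. These means did not overlap, whereas over the 6 plates they did, at 4.03 to 7.06 in differentiating neuron-like cells, against 3.15 to 5.38 in otic epithelium-like cells.

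Means per class and replicate were fitted with limma, with the replicate as a block and Benjamini-Hochberg adjustment over 10196 genes. Across the classes 33.7% of all tested genes were called at an adjusted p below 0.05, and 5 of the 8 genes were among them. These were Fos (adjusted p = 0.00653), Jun (0.0103), Egr1 (0.0297), Fosb (0.0303) and Junb (0.0345). Dusp1 (0.0825), Atf3 (0.126) and Ier2 (0.191) did not pass. Without replicate 1, Fos alone passed (0.00197), and without replicate 2, Fosb alone (0.0263), each in a fit on means per class and plate. In the 154 cells without a source well, a condition explained below, none of the 8 passed, with adjusted p from 0.17 for Jun to 0.69 for Egr1 among the 5.

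Against otic epithelium-like cells, Fos fell in differentiating neuron-like cells by 2.33 on the log2(FPKM + 1) scale (SE 0.50, adjusted p = 0.00394 by limma), and was lower on 6 of 6 plates. It was 1 of 8 called there, where 15% of tested genes were called and 8.47% were called lower. The difference was -2.94 without replicate 1 (adjusted p = 0.00114) and -1.63 without replicate 2 (adjusted p = 0.227). Fos also fell in cluster 4, by 2.32 (SE 0.50, adjusted p = 0.00435), again on 6 of 6 plates, and without replicate 2 the difference was -2.19 (adjusted p = 0.0704).

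Jun fell in cluster 4 by 1.65 (SE 0.43, limma adjusted p = 0.0146) and was lower on 6 of 6 plates. With Fos this made 2 of 8 called in cluster 4, where 15.5% of tested genes were called. The difference of Jun was -1.2 without replicate 1 (adjusted p = 0.483) and -1.73 without replicate 2 (adjusted p = 0.149), and it was -0.79 (adjusted p = 0.0758) when log2 was taken of the mean FPKM in place of the mean of log2 values.

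In early neuroblast-like cells 2 of 8 were called, both lower, where 5.01% of tested genes were called and 3.74% lower. Jun fell by 1.76 (SE 0.43, limma adjusted p = 0.0238) and Junb by 1.51 (SE 0.41, adjusted p = 0.0464), each on 6 of 6 plates. Fos was lower on 6 of 6 plates too, with a difference of -1.49 (SE 0.50) that did not pass (adjusted p = 0.111). Without replicate 1 and without replicate 2 neither Jun (adjusted p = 0.384 and 0.34) nor Junb (0.247 and 0.65) passed, while the differences stayed between -1.63 and -1.81. Without the replicate block neither passed, at adjusted p = 0.0575 for Jun and 0.0864 for Junb. When log2 was taken of the mean FPKM, the difference of Jun was -0.82 (limma adjusted p = 0.132) and that of Junb -1.45 (0.0531).

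None of the 8 was called in neural tube progenitor-like cells (7.22% of tested genes called), surface ectoderm-like cells (4.46%) or mesenchyme-like cells (7.11%), by limma. At an unadjusted p under 0.05, Junb, Jun, Atf3 and Ier2 were lower in neural tube progenitor-like cells, where 18.1% of all tested genes passed that level, and Jun, Egr1, Fosb and Junb in mesenchyme-like cells, where 20.4% did. All 8 differences in neural tube progenitor-like cells were below 0, from -0.22 for Fosb to -1.27 for Junb, with a median of -0.71 against -0.18 over all tested genes. In surface ectoderm-like cells the 8 differences ran from -0.37 for Atf3 to 0.70 for Egr1, with a median of -0.01 against -0.14. There, none of the 8 had an unadjusted p under 0.05, which 15.9% of all tested genes had. The SE of these differences was between 0.20 for Fosb and 0.50 for Fos.

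Between the neuronal steps, differentiating neuron-like cells had none of the 8 called against early neuroblast-like cells, where 3.63% of tested genes were called by limma. Dusp1 was higher by 1.2 (SE 0.43) and Jun by 1.02 (SE 0.43), at unadjusted p of 0.0139 and 0.0297 and adjusted p of 0.177 and 0.257. An unadjusted p under 0.05 was reached there by 14.8% of all tested genes. Dusp1 was at 5.14 and 5.19 in differentiating neuron-like cells, against 3.73 and 4.21 in early neuroblast-like cells. When cells were classed by their highest marker score in place of clusters, 2 of 8 passed in this comparison. Of all 10196 tested genes, 590 were called under that classing, against 370 with clusters.

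The number of genes found moved with some of these classes. Its median was 4692 in differentiating neuron-like, 4341 in early neuroblast-like, 4366 in cluster 4, 4237 in neural tube progenitor-like, 4465 in surface ectoderm-like and 5215 in mesenchyme-like cells, against 4730 in otic epithelium-like cells. The part of the number of genes found in these differences was not tested. Of the otic epithelium-like cells 4 held at least 4 of 6 macrophage markers, and of the other classes 1 early neuroblast-like cell and 2 cells of cluster 4 held at least 4 of 7 endothelial markers. Without these 7 cells Fos differed by -2.24 in differentiating neuron-like cells (adjusted p = 0.00531) and by -2.19 in cluster 4 (0.00628), Jun by -1.58 in cluster 4 (0.019) and by -1.70 in early neuroblast-like cells (0.0316), and Junb by -1.41 in early neuroblast-like cells (0.0577).

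For other immediate early genes 35 symbols were listed, some of them an old and a new name of the same gene. Of these symbols 31 had a row and 26 were tested. Across classes 14 were called by limma, where 33.7% of all tested genes were. Zfp36, which promotes the decay of unstable RNAs, Ppp1r15a, a phosphatase subunit of the stress response, and Nr4a1, an orphan nuclear receptor, were called lower than in otic epithelium-like cells in all 6 other classes. Ppp1r15a had the largest of these differences, -3.22 in cluster 4 (SE 0.40, adjusted p = 5.35e-05), with a mean of 2.02 there, against 5.25 in otic epithelium-like cells. Zfp36 was at 0.17 in cluster 4 and 0.29 in neural tube progenitor-like cells, against 2.33 in otic epithelium-like cells. In surface ectoderm-like cells these 3 were the only members of the list called, with Ppp1r15a at -2.95 (SE 0.40, adjusted p = 0.000258), although none of the 8 was called there. In cluster 4 Zfp36, Ppp1r15a and Nr4a1 were called in 11 of 11 alternatives, those without a replicate included. Not every class held as well. The fewest calls were those of Zfp36 in mesenchyme-like cells, in 6 of 10 alternatives and in neither without a replicate. In surface ectoderm-like cells Zfp36 and Nr4a1 were each called in 8 of 11, and Ppp1r15a in 10 of 11.

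Gadd45g, a growth arrest gene known as a target of proneural factors, went the other way. It was higher by 3.69 in differentiating neuron-like (SE 0.59, limma adjusted p = 0.000384), by 3.64 in early neuroblast-like (adjusted p = 0.00129) and by 3.33 in cluster 4 (adjusted p = 0.00106), each against otic epithelium-like cells. In differentiating neuron-like cells Btg2, an antiproliferative gene, was higher by 2.07 (adjusted p = 0.00916), and Klf4 and Gadd45b were lower. The list as a whole had 7 of 26 called in early neuroblast-like cells, 6 lower and 1 higher, where 5.01% of all tested genes were called and 3.74% lower, with a median difference of -0.53 against -0.12 over all tested genes.

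Of the AP-1 and ATF relatives 8 of 12 were tested and 3 were called across classes, a share near the 33.7% of all tested genes. Jdp2, a repressor of AP-1, was higher by 1.75 in surface ectoderm-like than in otic epithelium-like cells (SE 0.28, limma adjusted p = 0.000925), and Atf1, a relative of CREB, was lower by 1.67 in cluster 4 (adjusted p = 0.0271). The third was Atf4. Of the MAP kinase phosphatases and feedback genes of ERK signalling 14 of 16 were tested and 6 called, against the same 33.7%. Etv5 and Spry1, which are induced by FGF signalling through ERK, were lower than in otic epithelium-like cells by 2.35 and 2.06 in neural tube progenitor-like cells (adjusted p = 0.000559 and 0.00599). Dusp4, a nuclear MAP kinase phosphatase, was higher by 1.55 in differentiating neuron-like cells (adjusted p = 0.00771).

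Of the upstream regulators 13 of 15 were tested and 4 called across classes, a share near the 33.7% of all tested genes. Rps6ka1, an ERK-activated kinase that acts on CREB and serum response factor, was lower than in otic epithelium-like cells in 4 classes, by 2.55 in neural tube progenitor-like, 2.32 in early neuroblast-like, 2.05 in differentiating neuron-like and 2.0 in cluster 4 cells. Of the heat shock genes 14 of 14 were tested and 9 called, against the same 33.7%. Hspa1a, Hspa1b and Hspb1 were higher in surface ectoderm-like than in otic epithelium-like cells by 2.99, 3.1 and 3.36 (limma adjusted p = 1.57e-05, 1.02e-05 and 9.92e-06). Hspe1 and Hspd1, the mitochondrial chaperonins, were lower in cluster 4 by 1.22 and 1.14. Of the genes of endoplasmic reticulum and amino acid stress 7 of 11 were tested and 4 called, again against 33.7%, with Hspa5 lower than in otic epithelium-like cells by 0.50 to 0.92 in 5 classes and Ddit3 higher by 1.62 in differentiating neuron-like cells. Of the 79 differences between classes that were called among the genes of all these lists, 31 were called without replicate 1 and 25 without replicate 2.

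By plate, the range between the highest and the lowest mean ran from 0.40 for Atf3 to 1.72 for Junb on the log2(FPKM + 1) scale, and the genes did not all share the same plates. Plate 5 of replicate 2 was highest for Fos, Jun, Junb and Ier2, and plate 3 of replicate 1 was lowest for Jun, Junb, Ier2, Atf3 and Dusp1. Jun had plate means of 4.5, 5.3 and 4.59 in replicate 2, against 4.23, 4.39 and 3.93 in replicate 1. Its groups did not overlap, with a difference of 0.61, and an exact two-sided permutation test gave p = 0.10, the smallest that 3 against 3 plates allow.

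The plate means of Fos were 2.72, 3.16 and 2.89 in replicate 2, against 2.18, 3.12 and 2.19 in replicate 1. Plate 2 of replicate 1 thus lay among the plates of replicate 2. The spread was 2.92 ± 0.22 in replicate 2 and 2.5 ± 0.54 in replicate 1 (SD, n = 3 plates each), and the exact permutation p was 0.3. Of the other genes, exact p ran from 0.4 for Fosb to 1 for Dusp1, and none of the 8 was called by limma among 10196 genes, of which 0% were called. At an unadjusted p under 0.05, 5.06% of all tested genes passed.

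**Figure D2:**
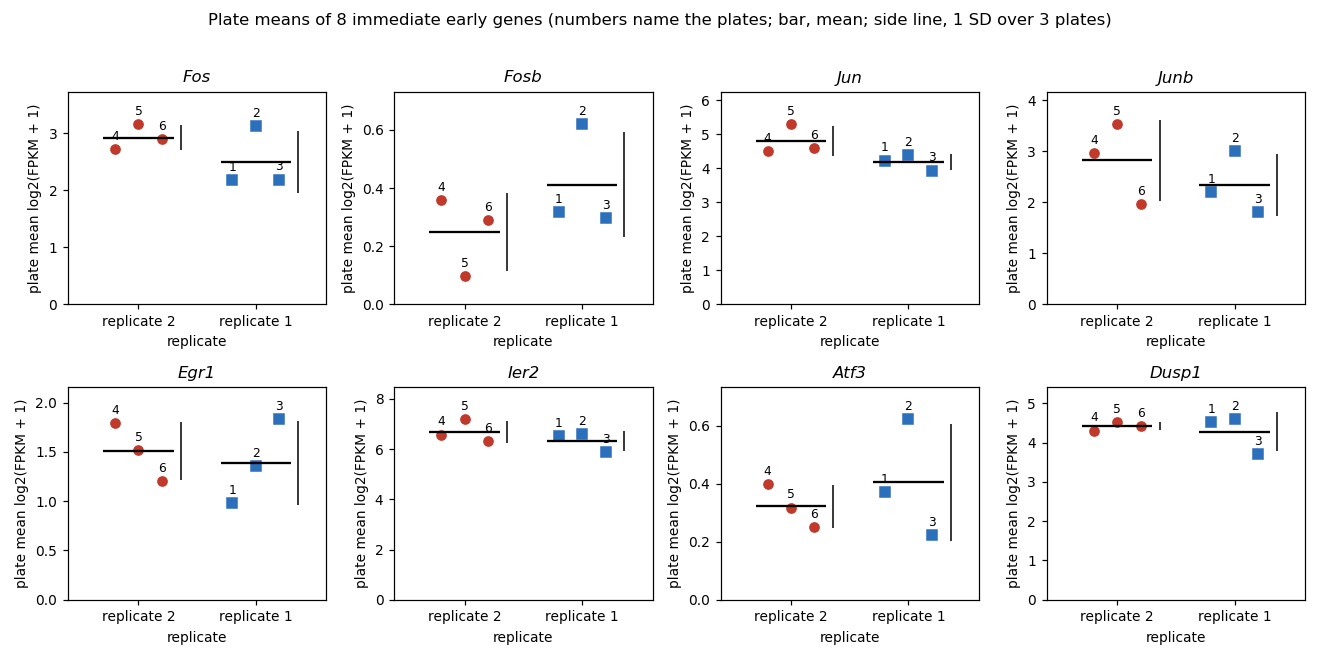
Plate means of the 8 genes as log2(FPKM + 1) on the y axis, with replicate 2 left of replicate 1 and the plate number over each point. Bars are means over 3 plates and side lines 1 SD. Jun is between 4.5 and 5.3 on the plates of replicate 2 and between 3.93 and 4.39 on those of replicate 1. Of the 8 genes it alone has no overlap in these means over all cells.

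The plates also differed in measures other than these genes. Plate 5 had the most genes found, with a median of 4935, against 4290.5 to 4612.5 on the others. Fosb, Atf3 and Dusp1 were highest on plate 2 and Egr1 on plate 3. Across rows of the plates the mean of Fos was lowest in row G, at 1.56, and 2.53 to 3.11 in the 7 other rows, and Junb was lowest in row G too, at 1.91. The part of depth, of the mix of classes and of the well position in these differences was not tested.

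Wells also shared transcripts. Only pairs of wells in the same column and the same replicate were searched. Among them, rare transcripts recurred in both replicates at 19 pairs of row positions, of which 17 were neighbouring rows of 1 plate. In each pair the level was higher at one end, which is called the source well here. Of all cells 337 had a source well and 154 had none in this search, which did not cover other columns. On plates 2 and 5 a source well was present for 87.8% and 88.4% of cells, against 54.5% to 65.5% on the other plates. Values listed in a cell with a source well may therefore hold a small amount of RNA or reads from another cell.

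Jun and Dusp1 were found more often where a source well was present. Jun was found in 88.7% of cells with a source well (84.9 to 91.9), against 68.8% without (60.9 to 76.0). Dusp1 was found in 82.5% with (78.0 to 86.4), against 63.6% without (55.5 to 71.2). Fos was found in 52.8% with (47.3 to 58.3), against 42.2% without (34.3 to 50.4). At an FPKM of at least 10 the shares lay closer, with 72.4% and 63.6% for Jun, 67.1% and 61.0% for Dusp1, and 42.1% and 39.6% for Fos, with and without a source well. Fosb, Egr1 and Atf3 had nearly the same share in both groups at either level.

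**Figure D3:**
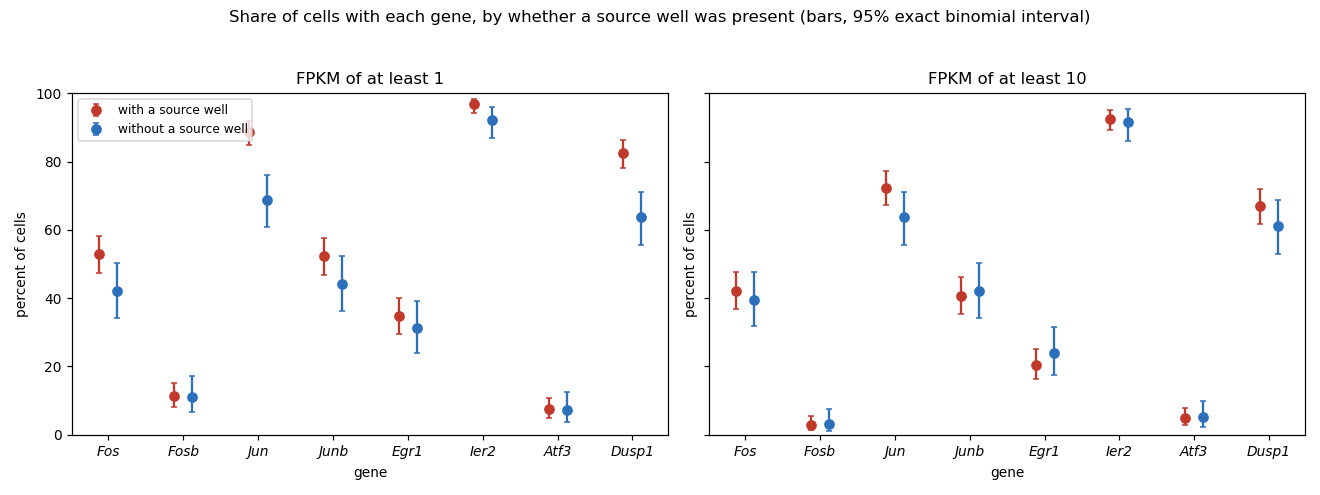
Share of cells in percent (y axis) in which each gene (x axis) reached an FPKM of at least 1 (left) or at least 10 (right), in cells with a source well in red and without one in blue, with exact binomial 95% intervals. At an FPKM of at least 1 the intervals of Jun and Dusp1 do not overlap, and at 10 those of all 8 genes do.

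In the cells without a source well alone, the difference of Fos from otic epithelium-like cells was -3.5 in differentiating neuron-like cells (limma adjusted p = 0.0988) and -2.05 in cluster 4 (0.341). Jun differed by -2.74 in early neuroblast-like cells (0.28) and by -0.69 in cluster 4 (0.802), and Junb by -1.14 in early neuroblast-like cells (0.642). All 5 of these differences were below 0 and none passed, and that of Jun in cluster 4 lay nearest to 0. In differentiating neuron-like cells Atf3 was called there in place of Fos, with a difference of -1.05 (adjusted p = 0.0472). Atf3 was found in only 11 of the 154 cells, and its difference was also -1.05 in early neuroblast-like and surface ectoderm-like cells, so the call rests on few cells. Dusp1, which was higher in differentiating neuron-like cells over all cells, had -1.17 without a source well (adjusted p = 0.574). This comparison has fewer cells in each class, and fewer genes passed in it in all, 868 in place of 3439 across the classes.

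From cell to cell the 8 genes varied together. After the mean of each class on each plate had been subtracted, all 28 pairs had a Pearson correlation above 0 over 491 cells, with a median of 0.241 and a median Spearman correlation of 0.238. These cells share 6 plates and their library preparation, so the correlations are given as a description. The strongest pairs were Fos with Junb and Fosb with Atf3, both at 0.342, followed by Junb with Egr1 at 0.315 and Fos with Egr1 at 0.302. The weakest was Ier2 with Atf3, at 0.136.

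**Figure D4:**
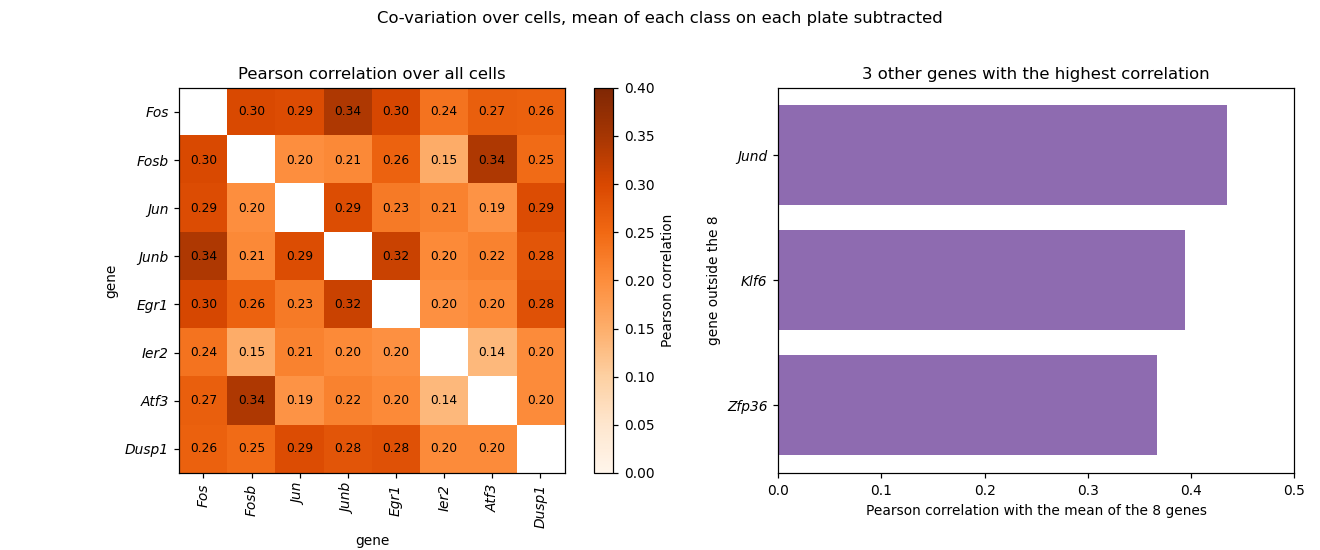
Left, Pearson correlation between each pair of the 8 genes (both axes) over 491 cells after the mean of each class on each plate was subtracted, from 0.136 to 0.342. Right, the 3 other genes (y axis) with the highest correlation with the mean of the 8 (x axis), from Jund at 0.435 to Zfp36 at 0.367.

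Over all genes the same measure had a median close to 0, for instance 0.02 with Fos and 0.00 with Egr1. Among 10195 genes ranked by correlation with Fos, 6 of the 7 others were in the top 10 and the last was at rank 13. For Junb, Egr1, Dusp1 and Jun all 7 others were in the top 100, and for Ier2 5 of 7, with Atf3 at rank 240. The median over the 28 pairs was 0.221 without replicate 1 and 0.261 without replicate 2, with all 28 above 0 in each.

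The number of genes found moved with the 8 genes too. The mean of the 8 had a correlation of 0.275 with the number of genes found, against a median of 0.112 over all tested genes, and Egr1 had 0.02. When the number of genes found had been regressed out, the median of the 28 pairs was 0.226. In the 154 cells without a source well it was 0.285, and without the 7 cells of macrophage or endothelial markers 0.223, and all 28 pairs were above 0 each time.

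By class, the median of the pairs was 0.313 in otic epithelium-like cells, where all 28 were above 0, and 0.317 in surface ectoderm-like cells. It was 0.252 in cluster 4, 0.199 in differentiating neuron-like, 0.165 in neural tube progenitor-like, 0.147 in mesenchyme-like and 0.098 in early neuroblast-like cells. In the last, Fosb was listed at 0 in every cell, 21 pairs could be formed and 15 were above 0. Fos and Jun had 0.069 in neural tube progenitor-like cells and 0.461 in otic epithelium-like cells, while Fos and Junb had 0.303 and 0.393.

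Presence and absence, counted over all cells without regard to class, showed pairs that were found together more often. Junb was found in 65.0% of cells with Fos (58.7 to 71.0), against 34.7% of cells without it (28.8 to 41.0). Egr1 was found in 44.9% of cells with Fos (38.5 to 51.4), against 22.6% without (17.5 to 28.3). Fosb was found in 15 of the 36 cells with Atf3, which is 41.7% (25.5 to 59.2), against 8.79% of those without it (6.35 to 11.8). For Ier2, which nearly all cells had, the shares lay closer, at 96.3% of cells with Junb (93.1 to 98.3), against 94.3% without (90.7 to 96.9).

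Cells held a median of 4 of the 8 genes. Of 491 cells 4 had none and 13 had all 8, and 7 of the 13 were otic epithelium-like and 3 surface ectoderm-like. The mean number found was 4.57 in surface ectoderm-like and 3.56 in early neuroblast-like cells, against 4.58 in otic epithelium-like cells. It was 3.59 in replicate 2 and 3.5 in replicate 1 of the neuroblast class, against 4.75 and 4.41 in the otic class.

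**Figure D5:**
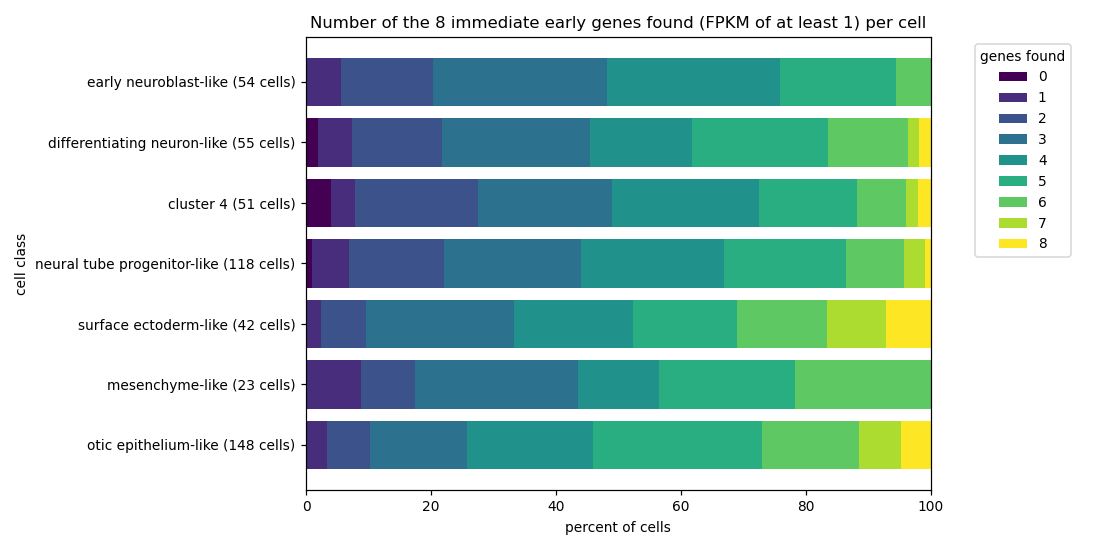
Share of cells in percent (x axis) by the number of the 8 genes found, from 0 in dark blue to 8 in yellow, for each class (y axis). No early neuroblast-like or mesenchyme-like cell held more than 6, and 17 of 148 otic epithelium-like cells held 7 or 8.

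Outside the 8, the genes most like their mean over cells were Jund, a Jun subunit that most cells express without stimulation, at 0.435, Klf6, a zinc finger factor, at 0.394, and Zfp36 at 0.367. Among those next in order, Ppp1r15a had 0.320, Egr2, a relative of Egr1, 0.303, and Nr4a1 0.278. Actg1, Btg1 and Btg2 had 0.264, 0.262 and 0.252. Of the 26 other immediate early genes tested, 12 lay above the 99th percentile of all genes, which was 0.174, and the median of the list was 0.164 against 0.030 over all genes. Gadd45g, the member of that list with the largest difference between classes, had 0.011.

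Single genes had partly their own companions. Those most like Fos were Jund at 0.273, Zcchc18 at 0.259, Zfp36 at 0.257, Id1 at 0.255 and Egr2 at 0.252, and further Klf6, Ppp1r15a, Metrnl and Msx1. Those most like Egr1 were Jund at 0.249, Zfp36 at 0.225, Nr4a2 at 0.218, Klf6 at 0.212 and Dusp8 at 0.209, and further Stmn4, Gm13889, Yod1 and Egr2. Jund was first for Jun (0.328), Dusp1 (0.301) and Ier2 (0.290), Klf6 for Junb (0.248), Zfp36 for Atf3 (0.315) and Acer3 for Fosb (0.228). For Atf3 the next were Nr4a1 and Klf2, for Jun Klf6 and Gng3, for Junb Nfkbia and Cd82, for Fosb Zfp36 and Ankib1, for Ier2 Mtch1 and Ier5l, and for Dusp1 Klf6 and Actg1.

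Of the other lists, 1 of 8 AP-1 and ATF relatives (Jund), 2 of 14 MAP kinase phosphatases and feedback genes (Dusp5 and Dusp6), 1 of 13 upstream regulators (Srf, which encodes serum response factor), 2 of 14 heat shock genes (Hspa1a and Hspa1b) and 1 of 7 genes of endoplasmic reticulum stress (Herpud1) lay above the 99th percentile. Dusp5 had 0.249 and Srf 0.234.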

How the data were processed

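The deposited table held 1 column for each of 491 cells, sorted into wells and sequenced after SMARTer and Nextera XT preparation, per the labels' protocols. Per the submitters' processing notes, the authors used TopHat with Bowtie and Bowtie2, Cufflinks, SAMtools, cutadapt and FastQC, and the build mm10. The deposited values were read as log2(FPKM + 1), because 99.75% of the values above 0 became numbers of 6 significant digits after 2 was raised to them and 1 subtracted (relative error 1e-07). Depth in reads is unknown. Of all values, 74.9% were at 0, which lowers differences of rarely found genes on this scale. The 132 rows of 63 repeated identifiers and 33 rows without a single symbol were left out.

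Cells were clustered on 59 markers found in at least 1% of cells (15 principal components, 15 neighbours, Leiden resolution 1.0, leidenalg 0.10.2). The 10196 genes that reached 1 FPKM in at least 5% of cells, markers left out, were tested on 14 means of 7 classes and 2 replicates, with limma 3.58.1 in R 4.3.3, with a trend and the replicate as a block, since the classes of 1 replicate share its cells' origin. A gene was called at an adjusted p below 0.05. The replicates were compared on plate means. Alternatives were another pseudocount (0.1), no filter on low values, the log2 of the mean FPKM, upper quartile scaling, no replicate block, means per class and plate, classes by marker score, leaving out each replicate or plate, and subsets of cells. Those without marker cells, the subset without a source well for replicates and co-variation, and the correction for genes found were chosen after seeing the data. The 8 genes and the gene lists were chosen with earlier results of these data known. Genes of the lists were named if called, up to 6 a list, and genes most like the 8 by Pearson correlation, 10 for Fos, Egr1 and the mean and 3 for each other gene. Some genes that met these rules are not reported here.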

Additional observations from a re-analysis of the deposited data

Results flagged for a closer look

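Plate means of the 8 genes were examined for a plate far from the other 5 in 24 groups of 6 plates, of which chance marks about 1 in 20, and 2 were found. Atf3 in neural tube progenitor-like cells had a mean of 0.37 on plate 1, where the other plates were lower, and it was found in 4 of 118 cells of that class in all. Dusp1 over all cells had a mean of 3.71 on plate 3, below every other plate. With every class weighted equally, the mean of Dusp1 was 4.42 on plate 3 and 4.46 to 4.76 on the other plates. Ier2 in surface ectoderm-like minus otic epithelium-like cells was -0.84 in replicate 2 and 0.28 in replicate 1, so that the directions were opposite. Taken as means of the 3 plates of each, the replicates differed by -1.16, and this was not tested.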

How the results depend on the processing

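None of the differences of the 8 genes changed direction while called. Of 79 called differences of genes of the other lists, 1 had the other sign in an alternative, where it was not called. This was Hspd1 in differentiating neuron-like against otic epithelium-like cells, at 0.000784 in cells without a source well. Of the 79, 31 were called without replicate 1 and 25 without replicate 2. Among the differences that passed, Fos stayed below 0 in 11 of 11 alternatives in differentiating neuron-like cells (called in 9) and in cluster 4 (called in 8), Jun in early neuroblast-like cells (called in 5) and cluster 4 (called in 6), and Junb in early neuroblast-like cells (called in 1, under upper quartile scaling), each against otic epithelium-like cells. The cause of a lost call was not tested. Where samples or cells were left out, their number was also smaller. Of the 8 genes, the number called across classes was 5, and it was 3 with means per class and plate, 2 with classes by marker score, 2 without a filter, 0 in cells without a source well, and 1 without either replicate. In cluster 4 it was 2, and 1 by marker score, from the log2 of the mean FPKM and from means per class and plate, 0 in cells without a source well, and 0 to 1 without a replicate. In early neuroblast-like cells it was 2, and 0 from the log2 of the mean FPKM, without a filter, with no replicate block and in cells without a source well, 1 with a pseudocount of 0.1 and without marker cells, and 0 without either replicate. In differentiating neuron-like cells it was 1, and 2 from the log2 of the mean FPKM or from means per class and plate, and 0 to 1 without a replicate. In cells without a source well it was 1, Atf3 in place of Fos. It was 1 in place of 0 in mesenchyme-like cells from the log2 of the mean FPKM and by marker score, and 1 in neural tube progenitor-like cells from the log2 of the mean FPKM. Between neurons and neuroblasts it was 2 in place of 0 by marker score.

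Counts over all genes moved by over 1.5 times as follows. In cells without a source well 868 genes were called across classes (3439 in all cells), 395 in cluster 4 (1585), 128 in surface ectoderm (455), 107 in neuroblasts (511), 312 in neurons (1532), 119 in the neural tube (736) and 24 between neurons and neuroblasts (370), and the share called higher was 47.6% in place of 32.4% in cluster 4, 68.8% in place of 46.2% in surface ectoderm and 53.8% in place of 43.6% in neurons. Mesenchyme-like cells gave no value there, having too few cells. By marker score it was 458 in mesenchyme (725), 829 in neuroblasts and 590 between neurons and neuroblasts. With the log2 of the mean FPKM it was 228 in surface ectoderm and 210 between neurons and neuroblasts, where 45.7% were called higher in place of 84.9%, and the share was 16.4% in place of 43.4% in mesenchyme and 42.9% in place of 25.4% in neuroblasts. Without a replicate it was 1726 to 1954 across classes, 612 to 767 in cluster 4, 211 to 214 in surface ectoderm, 258 to 543 in mesenchyme, 103 to 261 in neuroblasts, 675 to 691 in neurons, 280 to 286 in the neural tube and 137 to 148 between neurons and neuroblasts. Between replicates 3 genes, none of the 8, were called in place of 0 with the class as a term and the plate as a random effect. Upper quartile scaling moved no median of all genes by over 0.1. The median correlation of the 28 pairs was 0.313 in otic epithelium-like cells alone and 0.285 in cells without a source well, in place of 0.241. With 2 replicates and depth in reads unknown, small differences could not be told from the spread.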
